A study of Homo sapiens with 27 samples.

Results

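The fibrillar collagen genes encode the chains of the collagens that assemble into striated fibrils, and 10 of them were followed here: COL1A1, COL1A2, COL2A1, COL3A1, COL5A1, COL5A2, COL5A3, COL11A1, COL11A2 and COL27A1. They were chosen by gene family, as the rows with these symbols among 55882 gene symbols in the count files, and all 10 were found. The cells were U2OS, a human osteosarcoma line, and poly(A) RNA was sequenced from 27 libraries, 3 independent biological replicates in each of 9 groups. The 9 groups were 3 stable lines at 3 days. The control (WT in the labels) carried a blank pLKO.1 vector, and MMP2sh1 (MMP2KD_23) and MMP2sh2 (MMP2KD_26) carried pLKO.1 with an shRNA, a short hairpin RNA that leads to degradation of the mRNA of MMP2. All 3 lines were transduced and selected with puromycin. Cells were collected when subconfluent (day −2, Proliferating), confluent (day 0) or overconfluent (day +2). Each hairpin is represented by a single line here, so an effect of the hairpin and a difference between lines cannot be told apart.

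Fibrillar procollagens are made of 3 chains that wind into a triple helix, which requires glycine in each repeat of the chain. The chains are hydroxylated and folded in the endoplasmic reticulum, secreted, trimmed at their ends and cross-linked outside the cell. Type I collagen, usually built from COL1A1 and COL1A2 chains, is the main fibre of bone. Type III (COL3A1) is abundant in soft and early connective tissue, type V (COL5A1, COL5A2, COL5A3) and type XI (COL11A1, COL11A2) chains start fibrils and limit their diameter, type II (COL2A1) is the main collagen of cartilage, and COL27A1 encodes a chain known from cartilage. MMP-2, the protease that the hairpins target, is a gelatinase that degrades denatured collagen and is studied here for its cleavage of histone H3 in the nucleus.

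The repeat of glycine in the protein is written into the exons. Of the 569 internal coding exons in the canonical transcripts of the 10 genes, 272 (47.8%) were 54 bases long, against 0.699% of the internal coding exons of all protein coding genes in the annotation. Lengths that are a multiple of 9 bases made up 83.7% of the exons in these genes and 14.2% in all. An exon of 54 bases holds 18 codons, or 6 repeats of glycine and 2 other residues. The first such exon that starts in frame, printed for the 5 chains with a matched promoter, shows the repeat, with the glycine codon (GGN) that opens each run of 3 codons in capitals (GRCh37, the build that the authors name hg19, read 5′ to 3′ on the strand of the gene).
COL5A1 exon, chr9:137645696-137645749 (+): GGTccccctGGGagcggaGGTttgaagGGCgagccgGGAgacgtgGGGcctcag
COL5A3 exon, chr19:10106742-10106795 (-): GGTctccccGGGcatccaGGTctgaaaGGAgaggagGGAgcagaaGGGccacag
COL11A1 exon, chr1:103474019-103474072 (-): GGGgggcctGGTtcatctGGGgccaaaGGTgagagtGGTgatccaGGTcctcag
COL11A2 exon, chr6:33147008-33147061 (-): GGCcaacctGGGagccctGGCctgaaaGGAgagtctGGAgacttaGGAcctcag
COL27A1 exon, chr9:116940571-116940624 (+): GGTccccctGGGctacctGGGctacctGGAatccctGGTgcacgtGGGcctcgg

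Promoters were printed for COL5A3 and COL11A1, a member that fell and a member that rose over the expansion of the cells. Of the 10 members, 5 were matched in a RefSeq table of promoters (250 bases before to 50 bases after the start site): COL5A1, COL5A3, COL11A1, COL11A2 and COL27A1. COL1A1, COL1A2, COL2A1, COL3A1 and COL5A2 had no entry. The table is built on GRCh38.p14, and the sequences were located by exact match on GRCh37. Capitals mark a CCAAT box (CCAAT on either strand, which reads ATTGG in COL11A1), which begins 122 bases before the start site in COL5A3 and 110 bases before it in COL11A1.
COL5A3 promoter, chr19:10121131-10121430 (-): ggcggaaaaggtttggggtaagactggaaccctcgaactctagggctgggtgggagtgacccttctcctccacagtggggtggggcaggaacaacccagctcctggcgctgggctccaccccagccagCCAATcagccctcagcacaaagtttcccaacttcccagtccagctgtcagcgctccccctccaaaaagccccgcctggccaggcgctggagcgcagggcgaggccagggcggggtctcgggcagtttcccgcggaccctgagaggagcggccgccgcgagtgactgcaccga
COL11A1 promoter, chr1:103574029-103574328 (-): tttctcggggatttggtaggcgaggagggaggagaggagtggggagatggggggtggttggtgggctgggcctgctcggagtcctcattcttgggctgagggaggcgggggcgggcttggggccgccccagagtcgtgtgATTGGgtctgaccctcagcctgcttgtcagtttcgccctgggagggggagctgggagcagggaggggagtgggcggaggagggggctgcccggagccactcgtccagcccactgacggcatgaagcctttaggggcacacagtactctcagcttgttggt

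The letters CCAAT or ATTGG occur in 34.6% of 34796 promoters of the table. The letters TATAAA or TTTATA, found in 11.6% of them, are in neither of the printed promoters. GGGCGG or CCGCCC, found in 44.9%, occurs 1 time in the COL5A3 promoter and 3 times in that of COL11A1. The printed promoters are also alike in base composition, with 66.7% G and C in COL5A3 and 66.0% in COL11A1. The box was not common to the matched members: CCAAT was found in neither of 2 promoters of COL5A1, not in that of COL27A1, and in 2 of 4 promoters of COL11A2. No binding was measured in these libraries.

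The total count on genes was 33580129 to 59374327 per library (median 40075178), and levels are given as CPM, the count relative to the library total after scaling with the TMM factors of edgeR. MMP2 was at 222 to 504 CPM in the 9 control libraries, at 33.9 to 101 CPM in those of MMP2sh1 and at 134.9 to 291 CPM in those of MMP2sh2. On its group means it was at 17.3% to 19.8% of control in MMP2sh1 and at 48.2% to 62.6% in MMP2sh2. The mesenchymal markers VIM, CDH2, FN1 and SPARC summed to 2693 CPM or more in every library. Among osteoblast lineage markers, RUNX2, ALPL and SPP1 had a median of at least 1 CPM, while SP7 was at 0.166 CPM or less, BGLAP at 0.574 CPM or less, and IBSP was at 0 in each library, so that the late markers of osteoblasts were absent or near absent. Of 5 chondrocyte markers, SOX9, ACAN and MATN3 reached that median, while COL9A1 was at 0.118 CPM or less and COMP at 0.242 CPM or less. The list summed to 135.9 to 352 CPM, and SOX9 alone was at 100.4 to 322 CPM. The 4 epithelial markers summed to 3.33 to 9.54 CPM and the 2 endothelial markers found to 1.62 to 5.01 CPM. Among these only EPCAM (median 4.89 CPM) and VWF (median 3.38 CPM) had a median of at least 1 CPM. Of 4 leukocyte markers, which summed to 0.156 to 1.67 CPM, and 3 muscle markers, which summed to 0 to 0.676 CPM, none had a median of 1 CPM. In bulk RNA of this kind, fewer cells that express a gene and less RNA per cell cannot be told apart.

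COL1A1 was the most abundant fibrillar collagen transcript in each of the 9 groups, and no library of another member reached it per length. In the control at day −2 its level, as CPM per kilobase of exon, was 135.8 ± 8.44 (SD, n = 3), and COL5A1 followed at 21.4 ± 1.02, COL5A2 at 15.5 ± 0.37, COL11A1 at 6.76 ± 0.24 and COL3A1 at 6.08 ± 0.12. COL27A1 was at 2.34 ± 0.14 CPM per kilobase, COL5A3 at 1.13 ± 0.19, COL11A2 at 0.268 ± 0.058, COL2A1 at 0.0423 ± 0.0233 and COL1A2 at 0.0032 ± 0.0055. At this day the libraries of no 2 neighbours in the order overlapped down to COL1A2. Per length, COL1A1 made up 60.8% to 77.5% of the summed level of the 10 members in single libraries, COL5A1 9.43% to 12.2%, COL5A2 5.27% to 11.5%, COL11A1 3.48% to 10.9% and COL3A1 0.964% to 6.51%.

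The order changed as the cells grew. In the control at day +2, COL5A2 (22.7 ± 1.53 CPM per kilobase), COL5A1 (19.9 ± 1.66) and COL11A1 (19.2 ± 2.29) lay next to each other with overlapping libraries, below COL1A1 (124.2 ± 8.49). COL11A2 (1.05 ± 0.09) had passed COL5A3 (0.087 ± 0.020), and the libraries of COL5A3 and COL2A1 (0.073 ± 0.061) overlapped. With the length of the longest annotated transcript in place of all exons, the order was the same in 5 of the 9 groups, and in the control at day +2 COL5A1 stood above COL5A2.

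**Figure D1:**
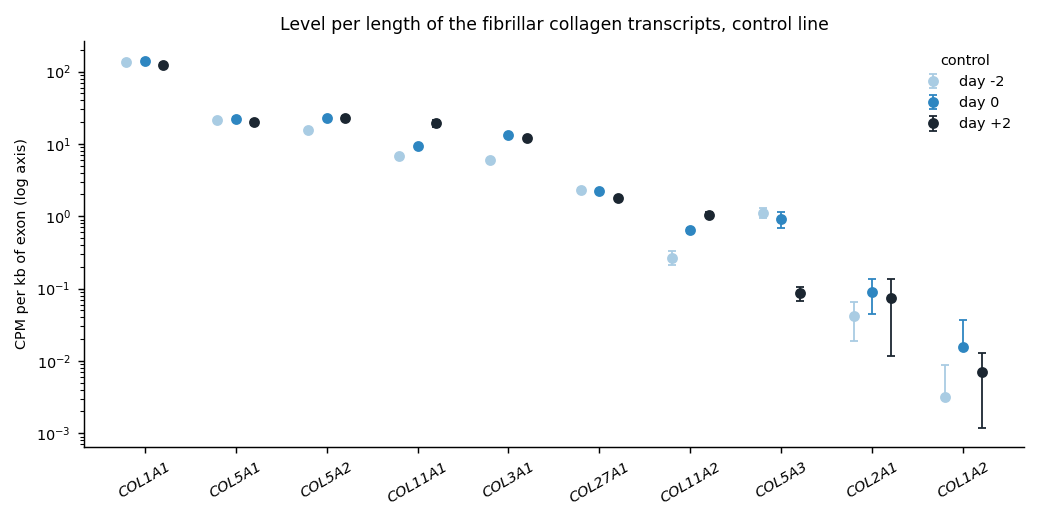
Level per length of the 10 fibrillar collagen transcripts in the control line. Each point is the mean of 3 libraries at 1 day, in CPM per kilobase of exon on a log axis, and bars are the SD, drawn upward only where the SD is at least the mean. COL1A1 stands at 124.2 to 142.5, and COL1A2 at 0.0154 or less.

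COL1A2, which encodes the partner chain of COL1A1 in the usual type I collagen, was nearly absent. It had 149 counts in the 27 libraries together, against 1389601 counts of COL1A1. Per kilobase of exon, COL1A1 was 11200 times as high (95% interval from the Poisson counting error of COL1A2, 9535 to 13230), or 9451 times with the longest transcripts. These values pool the 27 libraries, and the interval leaves out the spread between groups. The group mean of COL1A2 was 6.7e-04% (MMP2sh2, day 0) to 0.026% (MMP2sh1, day −2) of COL1A1 per kilobase. The counts of COL1A2 were between 0 and 28 in single libraries (median 5), and 6 libraries were at 0, where a count of 0 allows up to 3. The group with the highest mean was MMP2sh1 at day −2 (5, 17 and 28 counts in replicates 1, 2 and 3, against 6, 0 and 0 in the control). COL1A2 passed the filter on low counts in only 2 of 16 comparisons. With no filter, COL1A2 was called higher in MMP2sh1 at day −2 (log2 fold change 3.21, standard error, SE, 1.01, adjusted p = 0.028 from edgeR), a value that depends on how such low counts are treated. It was 7.004 without replicate 1 of the control, the only control library of that day with counts of COL1A2, and 3.58 without replicate 1 of MMP2sh1, and was called in both.

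COL2A1 was also low. Its counts ranged from 0 to 46 in single libraries (median 16), or at most 1.03 CPM. It was tested in 15 of the 16 comparisons and called in 1 of them, MMP2sh1 at day +2 against day −2. COL2A1 was there at 0, 0.579 and 0.146 CPM at day −2 and at 1.02, 1.03 and 0.628 CPM at day +2. The groups did not overlap in CPM, but their raw counts did, with 0, 27 and 6 counts against 39, 40 and 26. The log2 fold change was 1.80 (SE 0.70, adjusted p = 0.034), and the call was lost in 4 of the 6 fits that left out 1 library, without replicate 1 or 3 of MMP2sh1 at day −2 or replicate 1 or 2 at day +2 (1.25 to 1.70), and with DESeq2 (adjusted p = 0.051). Without replicate 2 at day −2 the value was 3.48.

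The expansion of the control cells changed most of the other members, and in different directions. From day −2 to day +2, 7 of the 9 members tested were called, 4 higher (COL3A1, COL5A2, COL11A1 and COL11A2) and 3 lower (COL1A1, COL5A3 and COL27A1). COL5A1 and COL2A1 were tested and not called, and COL1A2 was not tested. Over all 19099 genes tested, 56.8% were called in this comparison, 28.6% lower and 28.1% higher, so that a call here does not set a member apart from most genes. A gene is called when its adjusted p is under 0.05 in the quasi-likelihood test of edgeR, adjusted over all genes tested. The changes of the members were of very unequal size.

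COL5A3, a minor chain of type V, fell most. It was at 7.67, 8.94 and 6.30 CPM in the 3 control libraries of day −2, at 5.46, 5.14 and 7.89 CPM at day 0 and at 0.691, 0.642 and 0.438 CPM at day +2. Days −2 and 0 overlapped, and each library of day +2 was below all others. The log2 fold change from day −2 to day +2 was −3.71 (SE 0.23, adjusted p = 1.3e-13), a 12.9-fold lower mean, from 219 to 443 counts per library to 18 to 26. The fall lay after confluence, with −3.38 (SE 0.25, adjusted p = 2.6e-12) from day 0 to day +2 and −0.31 (SE 0.16, adjusted p = 0.14) from day −2 to day 0. Without replicate 3 of day 0, the latter was −0.53 and was called. Of the exon bases of COL5A3, 3.98% are shared with a gene on the opposite strand, and strand was not used in the counting.

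The type XI chains rose. COL11A1 was at 59.8, 60.7 and 63.9 CPM at day −2, at 84.5, 82.9 and 87.4 CPM at day 0 and at 196.8, 172 and 155 CPM at day +2, all in control libraries. No library of a later day was as low as any of an earlier day. The log2 fold change of COL11A1 was 0.47 (SE 0.05, adjusted p = 8.2e-08) to confluence and 1.05 (SE 0.06, adjusted p = 6.7e-15) after it, 1.49 in all (SE 0.06, adjusted p = 7.5e-17). COL11A2, which encodes the second chain of type XI, was at 2.11, 2.32 and 1.495 CPM at day −2, at 4.47, 5.16 and 4.60 CPM at day 0 and at 8.15, 8.12 and 6.98 CPM at day +2, again with no overlap. Its log2 fold change was 1.26 (SE 0.20, adjusted p = 1.9e-05) to confluence, 0.71 (SE 0.15, adjusted p = 2.1e-04) after it and 1.94 in all (SE 0.18, adjusted p = 6.5e-10). COL11A2 had 52 to 329 counts per control library, against 2223 to 6980 of COL11A1.

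COL3A1 and COL5A2 rose up to confluence and were not called after it. COL3A1 was at 41.4, 40.1 and 41.7 CPM at day −2, at 90.9, 87.3 and 88.9 CPM at day 0 and at 81.9, 78.3 and 85.2 CPM at day +2. Its log2 fold change was 1.12 (SE 0.05, adjusted p = 4.0e-15) to confluence and −0.12 (SE 0.05, adjusted p = 0.078) after it. Though not called, each library of day +2 was below all those of day 0. COL5A2, a chain of the common type V collagen, was at 110.3, 115.5 and 114 CPM at day −2, at 170.8, 164 and 168 CPM at day 0 and at 179, 159.8 and 159.5 CPM at day +2, so that days 0 and +2 overlapped. Its log2 fold change was 0.56 (SE 0.05, adjusted p = 1.8e-10) to confluence and −0.01 (SE 0.05, adjusted p = 0.94) after it.

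COL1A1, COL5A1 and COL27A1 moved little. COL27A1 was at 31.4, 35.1 and 31.9 CPM at day −2 and at 25.01, 24.2 and 24.97 CPM at day +2, a log2 fold change of −0.42 (SE 0.07, adjusted p = 1.9e-05) with no overlap. COL1A1 was at 1144, 1230 and 1296 CPM at day −2 and at 1187, 1036 and 1134 CPM at day +2, and these libraries overlapped. The log2 fold change of COL1A1 was −0.15 (SE 0.05, adjusted p = 0.021), a call that was lost without replicate 3 of day −2 (−0.10) or replicate 2 of day +2 (−0.09) and in the fit of all 27 libraries (adjusted p = 0.069). COL5A1 had a log2 fold change of −0.12 (SE 0.05, adjusted p = 0.055) and was called without replicate 1 of day −2 (−0.17) or of day +2 (−0.19) and in 3 of the alternative fits, DESeq2, median-of-ratios scaling and no filter. Per stage, 4 of the 9 members tested were called to confluence, where 35.5% of all genes were, and 6 after it, where 41.4% were. The 6 include COL1A1 (−0.19, adjusted p = 9.2e-04) and COL5A1 (−0.16, adjusted p = 0.011), of which COL5A1 lost its call without replicate 3 of day 0 or replicate 2 or 3 of day +2 (−0.13 to −0.12) and in the fit of all 27 libraries (adjusted p = 0.068). Without replicate 3 of day −2, COL1A1 was called at day 0 (0.12).

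**Figure D2:**
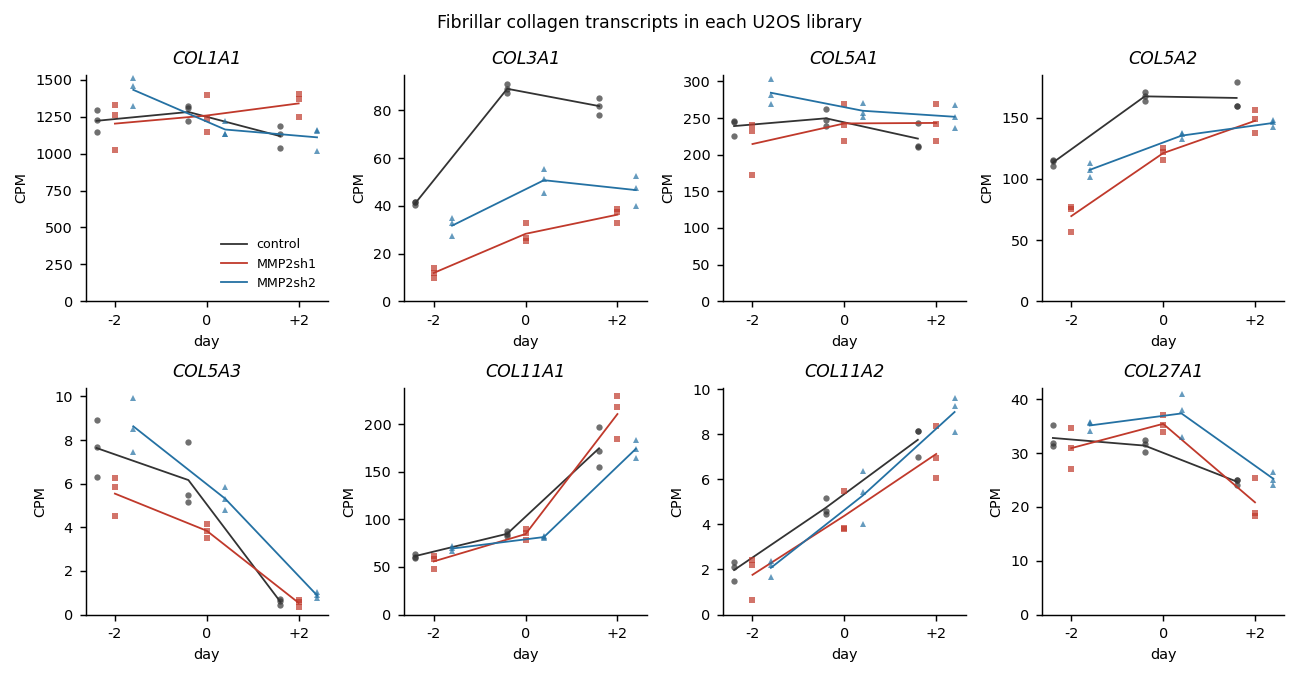
CPM of 8 fibrillar collagen transcripts by day of culture, with each point 1 library and each line joining the means of 3 libraries in the control, MMP2sh1 and MMP2sh2. COL3A1 in MMP2sh1 (9.55 to 38.5 CPM) lies below every control library (40.1 to 90.9 CPM), while COL5A3 is at 1.01 CPM or less at day +2 in each line.

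The hairpin lines were followed through the same stages. In MMP2sh1, 7 of the 10 members, all tested, were called between day −2 and day +2, where 54.9% of all genes were. In MMP2sh2 it was 8 of the 9 tested, where 54.7% were. COL5A3 fell in both, with a log2 fold change of −3.38 in MMP2sh1 (SE 0.28, adjusted p = 3.4e-10), from 4.53 to 6.28 CPM at day −2 to 0.365 to 0.677 CPM at day +2. In MMP2sh2 the log2 fold change of COL5A3 was −3.28 (SE 0.21, adjusted p = 8.8e-15), from 7.47 to 9.92 CPM to 0.750 to 1.01 CPM. COL11A2 rose by 1.98 (SE 0.29, adjusted p = 2.8e-06) in MMP2sh1 and by 2.13 (SE 0.18, adjusted p = 8.9e-12) in MMP2sh2. COL27A1 fell, with log2 fold changes of −0.59 (SE 0.12, adjusted p = 1.3e-04) and −0.47 (SE 0.08, adjusted p = 1.2e-05). In these 3 genes no difference in the change between a hairpin line and the control was called (adjusted p = 0.51 to 0.98).

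COL11A1 rose in both hairpin lines. In MMP2sh1 it was at 47.9, 58.4 and 61.3 CPM at day −2 and at 229, 218.5 and 185 CPM at day +2, a log2 fold change of 1.90 (SE 0.09, adjusted p = 1.1e-14). In MMP2sh2 it was at 66.3, 69.7 and 72.2 CPM and at 174, 184 and 165 CPM, a log2 fold change of 1.33 (SE 0.06, adjusted p = 8.6e-18). The rise in MMP2sh1 was larger than in the control by 0.41 on the log2 scale (SE 0.12, adjusted p = 0.027 for the interaction of line and day). That call was lost with DESeq2 (adjusted p = 0.12) and in 7 of the 12 fits that left out 1 library, without replicate 1 or 3 of the control at day −2, replicate 2 or 3 of the control at day +2, replicate 1 of MMP2sh1 at day −2 or replicate 1 or 2 of MMP2sh1 at day +2 (0.32 to 0.42).

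COL1A1 and COL5A1 were called lower in MMP2sh2 over this time, with log2 fold changes of −0.36 (SE 0.06, adjusted p = 3.1e-06) and −0.17 (SE 0.06, adjusted p = 0.017), and were not called in MMP2sh1 (0.14, SE 0.07, adjusted p = 0.12, and 0.16, SE 0.09, adjusted p = 0.14). The call of COL5A1 in MMP2sh2 was lost without replicate 1 or 3 of day +2 (−0.17 and −0.12) and in the fit of all 27 libraries (adjusted p = 0.065). In MMP2sh1, COL1A1 and COL5A1 were called higher with no filter (0.14 and 0.17), without replicate 3 of day −2 (0.21 and 0.24) and, for COL5A1, without replicate 3 of day +2 (0.24). In the test of the interaction, 3 members were called for MMP2sh1 (COL3A1, COL5A2 and COL11A1), where 7.40% of all genes were called, and 1 in that for MMP2sh2 (COL3A1), where 4.98% were. COL1A1 (0.29, adjusted p = 0.072 for MMP2sh1) was called there with no filter (0.28) and without replicate 1 of the control at day +2 or replicate 3 of MMP2sh1 at day −2 or day +2 (0.33 to 0.35), and COL5A1 (0.29, adjusted p = 0.15) with no filter (0.28).

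**Figure D3:**
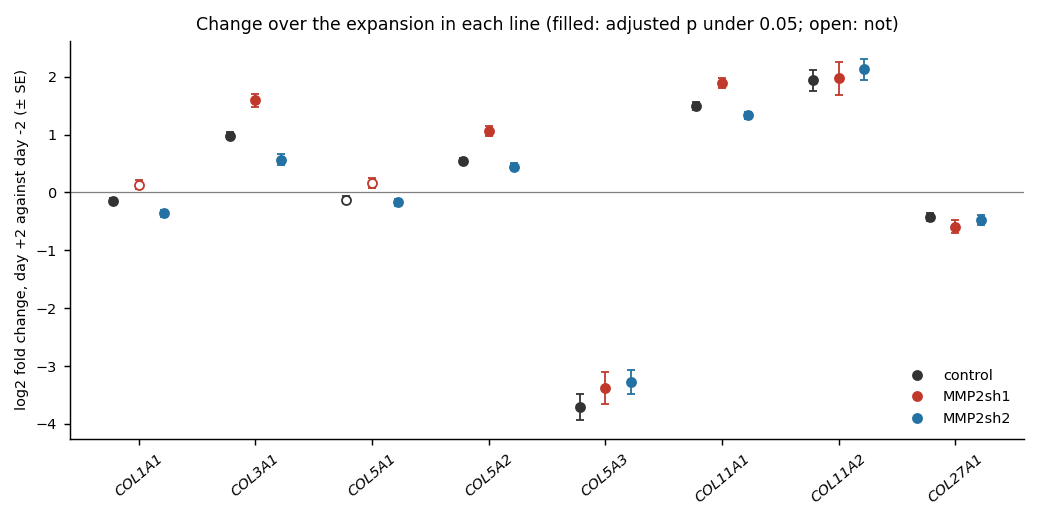
Log2 fold change of 8 fibrillar collagen transcripts at day +2 against day −2 in the control, MMP2sh1 and MMP2sh2, with bars for the SE from edgeR. Filled points are called (adjusted p under 0.05). COL5A3 lies between −3.71 and −3.28 in the 3 lines, COL11A2 between 1.94 and 2.13, and COL3A1 spreads from 0.57 to 1.59.

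COL3A1, the chain of type III collagen, was lower than control in both hairpin lines at each of the 3 days, and no library of a hairpin line reached any control library of its day. In MMP2sh1, COL3A1 was at 9.55, 11.9 and 14.1 CPM at day −2, at 26.7, 25.3 and 32.8 CPM at day 0 and at 38.5, 37.6 and 32.8 CPM at day +2. In MMP2sh2 it was at 27.4, 32.9 and 34.8 CPM, at 45.4, 51.4 and 55.3 CPM and at 47.3, 52.5 and 39.9 CPM at the same days. On the group means this is 28.9%, 31.7% and 44.4% of control in MMP2sh1 and 77.1%, 56.97% and 56.95% in MMP2sh2. The counts behind the lowest values were 354 to 580 per library.

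The log2 fold changes of COL3A1 against control in MMP2sh1 were −1.79 (SE 0.10, adjusted p = 6.1e-12) at day −2, −1.66 (SE 0.07, adjusted p = 1.8e-18) at day 0 and −1.17 (SE 0.07, adjusted p = 3.3e-13) at day +2. In MMP2sh2 they were −0.40 (SE 0.08, adjusted p = 0.0021), −0.82 (SE 0.06, adjusted p = 2.1e-12) and −0.81 (SE 0.07, adjusted p = 6.6e-11). None of these 6 calls was lost in any of the 12 alternatives run for each, and with 1 library left out the values were −1.93 to −1.10 in MMP2sh1 and −0.90 to −0.30 in MMP2sh2. The control libraries of a day were shared by the comparisons of both lines.

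COL3A1 also differed between the hairpin lines. MMP2sh1 was below MMP2sh2 by a log2 fold change of −1.40 (SE 0.12, adjusted p = 1.5e-09) at day −2, −0.84 (SE 0.08, adjusted p = 6.0e-10) at day 0 and −0.37 (SE 0.09, adjusted p = 0.010) at day +2. The groups did not overlap at any day, with 38.5 CPM as the highest value of MMP2sh1 and 39.9 CPM as the lowest of MMP2sh2 at day +2. The call at day +2 was lost without replicate 3 of MMP2sh1 (−0.30) or replicate 1 or 2 of MMP2sh2 (−0.35 and −0.27). At the same days MMP2 itself was lower in MMP2sh1 than in MMP2sh2, by −1.84, −1.41 and −1.52 on the log2 scale.

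The distance of COL3A1 from the control changed over the expansion, and in opposite directions in the hairpin lines. From day −2 to day +2, COL3A1 rose 3.06-fold in MMP2sh1 (log2 fold change 1.59, SE 0.12, adjusted p = 3.4e-11), 1.99-fold in the control (0.98, SE 0.06, adjusted p = 7.2e-14) and 1.47-fold in MMP2sh2 (0.57, SE 0.09, adjusted p = 4.2e-06). The rise in MMP2sh1 exceeded that in the control by 0.62 on the log2 scale (SE 0.13, adjusted p = 0.0021). In MMP2sh2 the difference was −0.41 (SE 0.12, adjusted p = 0.029), and this call was lost in the fit of all 27 libraries (adjusted p = 0.069) and in 7 of the 12 fits that left out 1 library (−0.42 to −0.31), without replicate 1 or 2 of the control at day −2, replicate 3 of the control at day +2, replicate 2 or 3 of MMP2sh2 at day −2 or replicate 1 or 3 of MMP2sh2 at day +2. For MMP2 itself the same differences were 0.20 (adjusted p = 0.28) and −0.12 (adjusted p = 0.43).

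COL5A2 followed COL3A1 with smaller changes. In MMP2sh1 it was at 56.6, 75.4 and 76.7 CPM at day −2, at 115.7, 122 and 125 CPM at day 0 and at 156, 149 and 137 CPM at day +2, below each control library of the same day. The log2 fold changes were −0.71 (SE 0.08, adjusted p = 8.8e-07), −0.47 (SE 0.05, adjusted p = 1.1e-09) and −0.17 (SE 0.06, adjusted p = 0.051). The value at day +2 thus missed the threshold by little, and it passed with DESeq2, median-of-ratios scaling and both other filters (adjusted p = 0.028 to 0.050) and without replicate 1 of MMP2sh1 at day +2 (−0.21). The rise of COL5A2 from day −2 to day +2 in MMP2sh1 (1.06, SE 0.09, adjusted p = 3.8e-10) exceeded that in the control by 0.54 on the log2 scale (SE 0.11, adjusted p = 0.0020).

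In MMP2sh2, COL5A2 was at 107, 101.7 and 113 CPM at day −2, where it overlapped the control, at 132, 137 and 136.6 CPM at day 0 and at 146, 148 and 143 CPM at day +2, below each control library. The log2 fold changes were −0.10 (SE 0.06, adjusted p = 0.30), −0.31 (SE 0.05, adjusted p = 4.4e-06) and −0.18 (SE 0.06, adjusted p = 0.038). The call at day +2 was lost with any 1 of the 6 libraries left out (−0.21 to −0.13) and in the fit of all 27 libraries (adjusted p = 0.12). COL5A2 rose by 0.45 in MMP2sh2 over the expansion (SE 0.06, adjusted p = 2.0e-07), which differed from the control by −0.09 (SE 0.08, adjusted p = 0.61). Between the hairpin lines, MMP2sh1 was below MMP2sh2 in COL5A2 at day −2 (−0.61, SE 0.08, adjusted p = 8.7e-06) and at day 0 (−0.16, SE 0.04, adjusted p = 0.011, lost without replicate 1 of MMP2sh1, −0.13, and in the fit of all 27 libraries, adjusted p = 0.097), and at day +2 the difference was 0.01 (SE 0.06, adjusted p = 0.95).

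**Figure D4:**
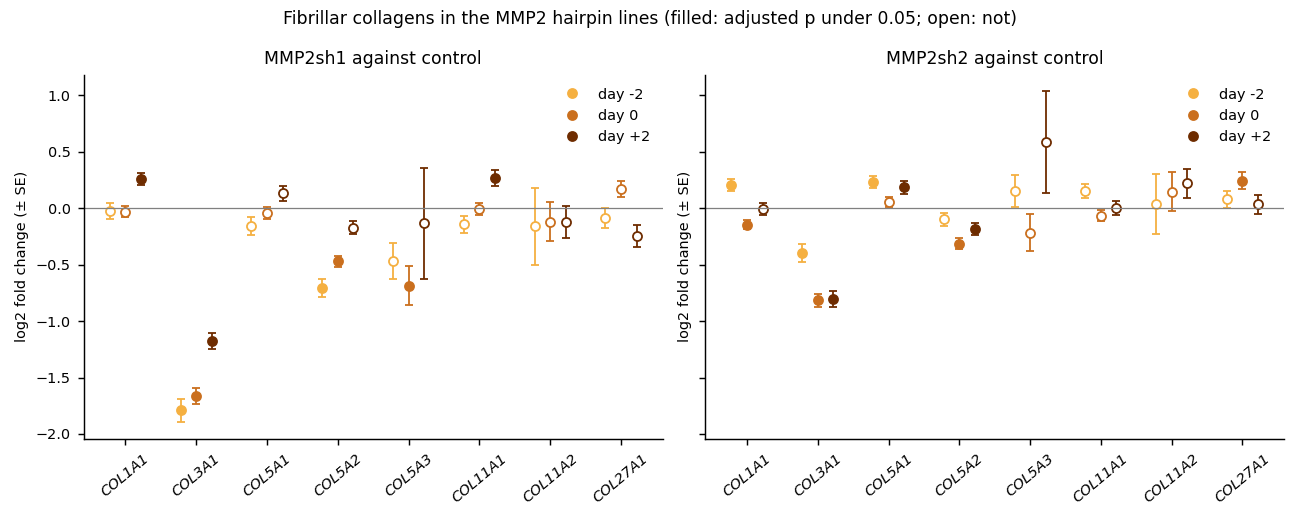
Log2 fold change against control of 8 fibrillar collagen transcripts in MMP2sh1 (left) and MMP2sh2 (right) at days −2, 0 and +2, with bars for the SE from edgeR. Filled points are called (adjusted p under 0.05). COL3A1 is the only member called at all 3 days in both lines, from −1.79 to −1.17 in MMP2sh1 and from −0.82 to −0.40 in MMP2sh2.

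COL3A1 and COL5A2 are neighbours on chromosome 2. COL3A1 (chr2:189839099-189877472, plus strand, GRCh37) and COL5A2 (chr2:189896624-190090038, minus strand) end towards each other, with 19151 bases between them. Within 500 kb of the pair the annotation holds 7 other protein coding genes, of which 5 are in the count files: GULP1 on the COL3A1 side, and WDR75, SLC40A1 (the iron exporter ferroportin), ASNSD1 and ANKAR on the COL5A2 side. In the 6 comparisons of a hairpin line with control, 3 of the 30 values of these 5 genes were called, a share near the background of 6.32% to 16.8% of all genes in the same comparisons. These were GULP1 in MMP2sh1 at day −2, where it was higher (0.42, SE 0.10, adjusted p = 0.0041), ASNSD1 in MMP2sh1 at day 0 (0.19, SE 0.06, adjusted p = 0.023) and SLC40A1 in MMP2sh1 at day +2 (−0.26, SE 0.09, adjusted p = 0.046).

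The calls of ASNSD1 and SLC40A1 were each lost in 4 of the 6 fits that left out 1 library (ASNSD1 without replicate 1 or 3 of the control or replicate 1 or 2 of MMP2sh1, 0.15 to 0.20; SLC40A1 without replicate 1 or 2 of either line, −0.25 to −0.18), and that of GULP1 was not lost in these fits. WDR75, the nearest of the neighbours to COL5A2, had log2 fold changes of −0.17 to 0.09, with adjusted p of 0.11 or more, and ANKAR, at 2.04 to 4.62 CPM on the group means, of −0.62 to 0.18, with adjusted p of 0.095 or more. No neighbour was below control in a call at more than 1 day.

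**Figure D5:**
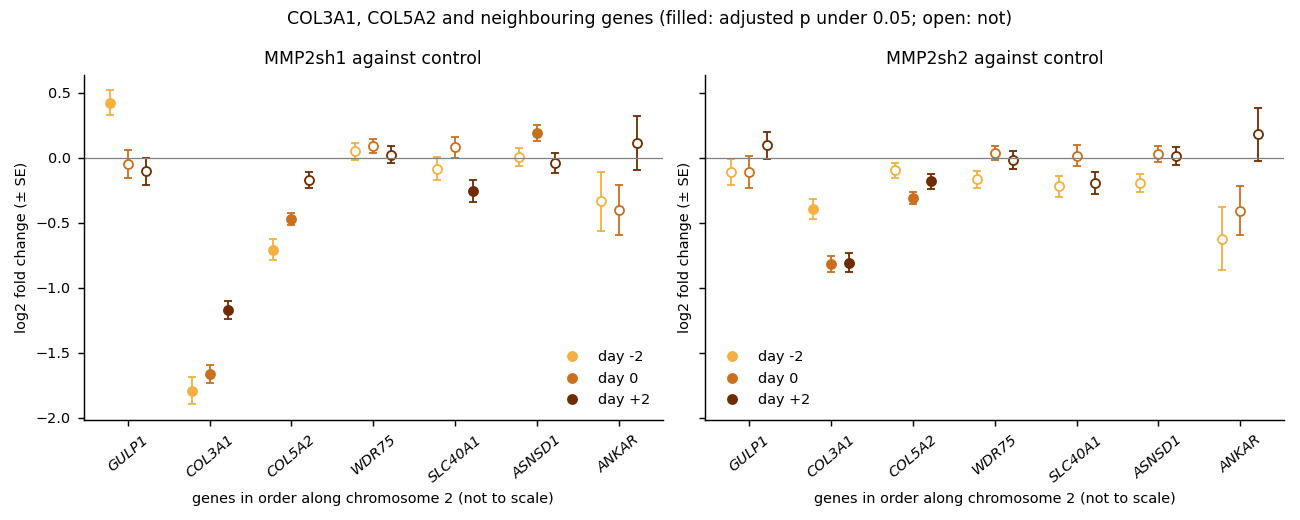
Log2 fold change against control of COL3A1, COL5A2 and 5 neighbouring genes, in their order along chromosome 2 and not to scale, in MMP2sh1 (left) and MMP2sh2 (right) at the 3 days, with bars for the SE. Filled points are called (adjusted p under 0.05). The neighbours lie between −0.62 and 0.42, and the lowest of their called values is −0.26.

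The other members showed small or single differences from the control. In MMP2sh1, 2 of the 8 members tested were called at day −2 (COL3A1 and COL5A2, both lower), where 11.6% of all genes were called, 6.14% lower and 5.42% higher. On day 0, 3 of the 9 members tested were called, all lower (COL3A1, COL5A2 and COL5A3), where 16.8% of genes were called, 8.58% lower and 8.26% higher. On day +2, 3 of the 9 tested were called, COL3A1 lower and COL1A1 and COL11A1 higher, where 14.8% of genes were called, 7.11% lower and 7.68% higher.

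COL5A3 in MMP2sh1 at day 0 was at 3.53, 4.17 and 3.82 CPM, below the 5.14 to 7.89 CPM of the control. Its log2 fold change was −0.68 (SE 0.17, adjusted p = 0.0041), and the call was lost without replicate 3 of the control (−0.47, adjusted p = 0.079). At day −2 it was −0.47 (SE 0.16, adjusted p = 0.055) and was called without replicate 3 of the control (−0.58) or of MMP2sh1 (−0.57), and with no filter (adjusted p = 0.040). COL1A1 in MMP2sh1 at day +2 was at 1369, 1406 and 1249 CPM, above the 1036 to 1187 CPM of the control, a log2 fold change of 0.26 (SE 0.05, adjusted p = 6.4e-04). COL11A1 was there at 0.27 (SE 0.07, adjusted p = 0.0090), a call lost without replicate 2 or 3 of the control (0.26 and 0.19) and with DESeq2 (adjusted p = 0.17), and its libraries overlapped those of the control. In the same comparison, COL27A1 (−0.25, adjusted p = 0.10) was called without replicate 1 of MMP2sh1 (−0.41), and COL5A1 (0.13, adjusted p = 0.19) without replicate 1 of the control or replicate 3 of MMP2sh1 (0.20 and 0.21).

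In MMP2sh2, 3 of the 9 members tested were called at day −2, where 11.0% of genes were called, 6.33% lower and 4.71% higher. These were COL3A1, lower, and COL1A1 and COL5A1, higher. COL1A1 was at 1326, 1460 and 1512 CPM against 1144 to 1296 CPM (0.21, SE 0.05, adjusted p = 0.016), and COL5A1 at 269, 282 and 303 CPM against at most 246.5 CPM (0.23, SE 0.05, adjusted p = 0.0071). The call of COL1A1 was lost without replicate 1 or 2 of the control or replicate 2 of MMP2sh2 (0.16 to 0.21), and that of COL5A1 without replicate 1 of the control (0.19).

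At day 0, 4 members were called in MMP2sh2, where 12.9% of genes were, 5.81% lower and 7.07% higher. COL3A1, COL5A2 and COL1A1 (−0.15, SE 0.04, adjusted p = 0.0070) were lower and COL27A1 (0.25, SE 0.08, adjusted p = 0.025) was higher. The call of COL1A1 was lost without replicate 1 of MMP2sh2 (−0.13) and that of COL27A1 without replicate 1 or 3 of the control or replicate 1 or 2 of MMP2sh2 (0.17 to 0.25), and both in the fit of all 27 libraries (adjusted p = 0.28 and 0.066). At day +2, 3 members were called, where 6.32% of genes were, 3.43% lower and 2.89% higher. COL3A1 and COL5A2 were lower, and COL5A1 was higher (0.19, SE 0.06, adjusted p = 0.036), a call lost without replicate 2 or 3 of the control or replicate 1 or 2 of MMP2sh2 (0.14 to 0.19) and in the fit of all 27 libraries (adjusted p = 0.21). COL11A2 was called in neither line at any day, with log2 fold changes of −0.16 to 0.22 and SEs of 0.13 to 0.34.

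Between the hairpin lines, 6 of the 9 members tested were lower in MMP2sh1 than in MMP2sh2 at day −2, where 10.7% of genes were called. Beside COL3A1 and COL5A2 these were COL5A3 (−0.63, SE 0.16, adjusted p = 0.0080), COL5A1 (−0.40, SE 0.08, adjusted p = 0.0016), COL11A1 (−0.30, SE 0.08, adjusted p = 0.013) and COL1A1 (−0.24, SE 0.07, adjusted p = 0.030). Replicate 1 of MMP2sh1 at day −2 was the lowest of its 3 libraries in COL1A1 (1024 against 1261 and 1327 CPM), COL3A1, COL5A1 (172 against 232 and 240 CPM), COL5A2, COL11A1 and COL11A2 (0.648 against 2.42 and 2.21 CPM). Without it, COL1A1 (−0.13) and COL11A1 (−0.20) lost the call and COL5A1 was at −0.26, still called. COL1A1 also lost its call without replicate 2 or 3 of MMP2sh2 (−0.22 and −0.21), COL11A1 without replicate 2 of MMP2sh2 (−0.30), COL5A3 without replicate 2 of MMP2sh1 (−0.50) or replicate 3 of MMP2sh2 (−0.53), and COL5A1 with DESeq2 (adjusted p = 0.058).

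At day 0, 4 members were called between the hairpin lines, where 18.5% of genes were. COL3A1, COL5A2 and COL5A3 (−0.47, SE 0.16, adjusted p = 0.043) were lower in MMP2sh1 and COL1A1 was higher (0.12, SE 0.04, adjusted p = 0.047). The call of COL5A3 was lost in 5 of the 6 fits that left out 1 library, all but the fit without replicate 1 of MMP2sh2 (−0.53 to −0.39), and that of COL1A1 without replicate 2 or 3 of MMP2sh1 or replicate 1 or 3 of MMP2sh2 (0.03 to 0.13), with 0.18 without replicate 1 of MMP2sh1. Both were also lost with DESeq2 (adjusted p = 0.062 and 0.44) and in the fit of all 27 libraries (adjusted p = 0.091 and 0.39), and that of COL5A3 with no filter (adjusted p = 0.071) and with a block of the replicate number (adjusted p = 0.050), 9 of the 12 alternatives in all. COL5A1 (−0.09, adjusted p = 0.19) was called without replicate 3 of MMP2sh1 (−0.18) and COL2A1 (1.30, adjusted p = 0.092) without replicate 1 of MMP2sh2 (2.04). At day +2, 3 members were called, where 7.86% of genes were: COL3A1, lower in MMP2sh1, and COL1A1 (0.27, SE 0.06, adjusted p = 0.0026) and COL11A1 (0.27, SE 0.07, adjusted p = 0.015), higher. The call of COL11A1 was lost without replicate 1 or 2 of MMP2sh1 or replicate 1 or 3 of MMP2sh2 (0.20 to 0.27). COL27A1, at −0.28 (adjusted p = 0.11), was called without replicate 1 of MMP2sh1 (−0.45).

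The balance between chains followed from these levels. Per kilobase of exon, COL3A1 was at 4.49% ± 0.30 (SD, n = 3) of COL1A1 in the control at day −2, 9.26% ± 0.59 at day 0 and 9.76% ± 0.49 at day +2. The ratio in MMP2sh1 was 1.31% ± 0.10, 2.99% ± 0.23 and 3.60% ± 0.13, and in MMP2sh2 2.94% ± 0.17, 5.82% ± 0.62 and 5.58% ± 0.42. The libraries of the 3 lines did not overlap in this ratio at any day, with MMP2sh1 lowest and the control highest. COL5A2 was at 72.3% ± 1.79 of COL5A1, the other chain of the common type V collagen, in the control at day −2 and at 114% ± 1.88 at day +2. In MMP2sh1 the ratio of COL5A2 to COL5A1 was 49.5% ± 0.75 and 92.6% ± 3.84, and in MMP2sh2 57.6% ± 2.88 and 88.4% ± 4.04. COL11A1, which can join type V chains in fibrils, was at 31.6% ± 1.20 of COL5A1 in the control at day −2 and at 96.5% ± 5.90 at day +2, at 32.2% ± 1.80 and 106% ± 3.78 in MMP2sh1 and at 29.9% ± 0.60 and 84.9% ± 0.74 in MMP2sh2. The ratios were not tested.

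The genes whose pattern over the 9 group means was most like that of the 3 members with the widest range, of those members with at least 1 CPM in each group mean, were sought among 13845 genes past the same limit, by the root mean square difference of centred log2 CPM. For COL11A1, which spans 1.92 on the log2 scale, these were RP11-705C15.3 (0.07), CNTNAP3B (0.08) and HES1 (0.09), the last a target of Notch signalling at 27.1 to 98.2 CPM. For COL11A2, with a range of 2.35, they were RP5-1092A3.4 (0.15), AMT (0.18) and CARF (0.18). For COL3A1, with a range of 2.91, the nearest genes were less close, H19 (0.37), NF1P4 (0.39) and TJP3 (0.41), at 1.17 to 7.24 CPM. The group means share their libraries and depth, and no test was made.

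The enzymes and partners of fibrillar collagens were given by 6 lists. Log2 fold changes of list genes are given only where the gene was the largest called fall or rise of its list in that comparison. A line or day without a value may hold the same change or the opposite one. Between days −2 and +2 in the control, where 28.6% of genes were called lower and 28.1% higher, 19 genes of procollagen folding and modification divided into 5 lower, 8 higher and 6 not called (median log2 fold change 0.00, against 0.03 over all genes). P4HA1 and P4HA2, catalytic subunits of prolyl 4-hydroxylase, were the extremes in opposite directions (0.76, SE 0.07, adjusted p = 1.1e-09, and −0.48, SE 0.06, adjusted p = 9.1e-08). Of 13 genes of procollagen cleavage and cross-linking, 6 were lower and 4 higher (median −0.29), with PCOLCE2, an enhancer of procollagen C-proteinase, at −1.92 (SE 0.10, adjusted p = 9.1e-15) and ADAMTS14, a procollagen N-proteinase, at 4.22 (SE 0.24, adjusted p = 4.6e-14).

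Of 15 fibril-bound collagens and small leucine-rich proteoglycans, 9 were tested, of which 2 were lower and 6 higher (median 1.28). COL12A1 fell (−1.24, SE 0.06, adjusted p = 1.9e-15) and COL14A1, the related chain of type XIV, rose (3.66, SE 0.31, adjusted p = 1.3e-10). COL14A1 was low, at 0.236 to 0.329 CPM at day −2 and 3.37 to 4.54 CPM at day +2. Of 10 collagen receptors, 1 was lower, GP6 (−2.46, SE 0.17, adjusted p = 2.2e-12), and 8 were higher (median 1.28), with LAIR1 at 3.35 (SE 0.77, adjusted p = 5.7e-04, not called with DESeq2, adjusted p = 0.074). LAIR1 was very low, at 0 to 0.208 CPM at day −2 and 0.568 to 1.39 CPM at day +2. Of 7 collagenases and gelatinases, 5 were tested, with 1 lower, FAP (−0.37, SE 0.10, adjusted p = 0.0015), and 2 higher (median 0.44). MMP13, a collagenase of cartilage and bone, rose by 3.24 (SE 0.25, adjusted p = 1.4e-11), to 5.88 ± 0.81 CPM. Of 17 regulators of collagen transcription, 15 were tested, with 4 lower and 8 higher (median 0.45). TGFB2, a ligand that induces collagen genes, fell (−1.72, SE 0.05, adjusted p = 2.1e-20) and SOX6, a partner of SOX9 at cartilage genes, rose (2.23, SE 0.10, adjusted p = 1.1e-16).

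Against the control, counts of called list genes are to be read beside the shares of all genes called lower and higher, which were 6.14% and 5.42% at day −2, 8.58% and 8.26% at day 0 and 7.11% and 7.68% at day +2 in MMP2sh1, and 6.33% and 4.71%, 5.81% and 7.07%, and 3.43% and 2.89% in MMP2sh2. Of the 19 folding genes, 1 was lower and 4 higher in MMP2sh1 at day −2, 3 and 0 at day 0 and 3 and 7 at day +2, and in MMP2sh2 2 and 5, 3 and 1, and 3 and 0. PLOD2, a lysyl hydroxylase of collagen telopeptides, was the largest fall in MMP2sh1 at day −2 (−0.41, SE 0.06, adjusted p = 2.2e-05) and at day 0 (−0.33, SE 0.05, adjusted p = 2.8e-06). At day +2 PLOD2 was at 109.6 ± 3.85 CPM (SD, n = 3) against 135.1 ± 3.59 CPM in the control, again with no overlap. LEPREL1, which encodes a prolyl 3-hydroxylase, was lower at day +2 in MMP2sh1 (−0.94, SE 0.08, adjusted p = 4.3e-10) and in MMP2sh2 (−0.61, SE 0.08, adjusted p = 2.4e-07), while in MMP2sh2 it was higher at day −2 (0.40, SE 0.06, adjusted p = 2.4e-04) and day 0 (0.30, SE 0.06, adjusted p = 2.6e-04). The other extremes of this list were COLGALT1, a collagen galactosyltransferase (0.26 in MMP2sh1 at day −2), P4HA2 (0.26 in MMP2sh1 at day +2, not called without replicate 1 of the control, 0.22, or replicate 2 of MMP2sh1, 0.19), FKBP14, a prolyl isomerase (−0.39 in MMP2sh2 at day −2), and P4HA1 (−0.25 in MMP2sh2 at day 0).

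Of the 13 genes of cleavage and cross-linking, 2 were lower and 1 higher in MMP2sh1 at day −2, 3 and 1 at day 0 and 1 and 2 at day +2. In MMP2sh2, 0 were lower and 3 higher at day −2, 1 and 2 at day 0 and 2 and 2 at day +2. LOXL4, a lysyl oxidase-like enzyme of cross-linking, was higher at day +2 in MMP2sh1 (0.39, SE 0.06, adjusted p = 6.3e-06) and in MMP2sh2 (0.30, SE 0.06, adjusted p = 2.0e-04), and ADAMTS2, a procollagen N-proteinase, was higher in MMP2sh2 at day −2 (0.61, SE 0.08, adjusted p = 1.7e-05). LOXL1, of the same family as LOXL4, was lower in MMP2sh1 at day −2 (−0.31, adjusted p = 0.0054, not called with control replicate 3 left out, −0.25) and at day 0 (−0.30, adjusted p = 1.2e-04), and LOXL3 in MMP2sh2 at day +2 (−0.45, adjusted p = 7.4e-05). At day +2 LOXL1 was above every control library in MMP2sh1, at 129.2 to 136.8 against 114.4 to 128.0 CPM. PCOLCE2 was higher at day 0 in MMP2sh1 (0.44, adjusted p = 1.4e-04) and in MMP2sh2 (0.31, adjusted p = 0.016, not called without replicate 1 or 2 of the control or replicate 2 or 3 of MMP2sh2, 0.25 to 0.30). PCOLCE, the other enhancer, was lower in MMP2sh2 at day 0 (−0.25, adjusted p = 8.5e-04) and in MMP2sh1 at day +2 (−0.19, adjusted p = 0.028, not called in 4 of the 6 fits that left out 1 library, those without any of the control or without replicate 3 of MMP2sh1, −0.21 to −0.13). TLL2, a tolloid-like proteinase, was higher in MMP2sh1 at day −2 (0.66, adjusted p = 0.012, not called without replicate 2 of the control, 0.58, or of MMP2sh1, 0.61).

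Of the 15 fibril-bound genes, 9, 10 and 10 were tested at days −2, 0 and +2 in MMP2sh1 and 7, 10 and 9 in MMP2sh2. Of those tested, 2 were lower and 0 higher in MMP2sh1 at day −2 and 1 and 1 at days 0 and +2. In MMP2sh2 it was 2 and 0, 2 and 1, and 2 and 0. COL14A1 was the largest fall of the list at days 0 and +2 in both lines. Its log2 fold change was −1.41 (SE 0.33, adjusted p = 0.0024) and −0.97 (SE 0.23, adjusted p = 0.0034) in MMP2sh1 and −1.10 (SE 0.33, adjusted p = 0.019) and −0.95 (SE 0.23, adjusted p = 0.0045) in MMP2sh2. The call of COL14A1 in MMP2sh2 was lost at day 0 without replicate 1 or 3 of the control or of MMP2sh2 (−1.03 to −0.92) and at day +2 when control replicate 2 was left out (−0.81). Those 2 calls and that of MMP2sh1 at day +2 were also lost in the fit of all 27 libraries. At day −2 the largest falls were COL16A1 in MMP2sh1 (−0.66, SE 0.11, adjusted p = 2.6e-04) and LUM, lumican, in MMP2sh2 (−0.71, SE 0.10, adjusted p = 7.0e-05). COL12A1 was higher at day 0 in MMP2sh2 (0.30, adjusted p = 7.5e-06) and in MMP2sh1 (0.13, adjusted p = 0.032, not called without replicate 1 or 3 of the control or replicate 2 or 3 of MMP2sh1, 0.09 to 0.13), and COL9A2 in MMP2sh1 at day +2 (0.22, adjusted p = 0.045, not called without any of the control or without replicate 1 of MMP2sh1, 0.12 to 0.25).

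Of the 10 receptors, 9 were tested at day −2 and 10 at days 0 and +2 in each line. Of those tested, 2 were lower and 1 higher in MMP2sh1 at day −2, 5 and 1 at day 0 and 0 and 4 at day +2. In MMP2sh2 it was 1 and 3, 3 and 0, and 3 and 1. ITGA2, an α chain of the collagen-binding integrins, was higher in MMP2sh1 at day −2 (0.42, SE 0.10, adjusted p = 0.0057), day 0 (0.53, SE 0.08, adjusted p = 1.1e-05) and day +2 (0.59, SE 0.05, adjusted p = 3.5e-09), and the call at day −2 was lost without replicate 1 of the control or replicate 2 of MMP2sh1 (0.31 in both). ITGB1, their β chain, was lower at day −2 in MMP2sh1 (−0.41, SE 0.05, adjusted p = 2.3e-06) and in MMP2sh2 (−0.18, SE 0.05, adjusted p = 0.019, not called without any 1 of the control libraries, −0.19 to −0.17). ITGA11, another α chain, was higher in MMP2sh2 at day −2 (1.17, adjusted p = 0.0055) and lower at day 0 (−0.92, adjusted p = 5.0e-04). At day 0 ITGA11 was also below every control library in MMP2sh1, at 2.38 to 2.68 against 5.33 to 7.01 CPM. The other extremes were ITGA10 in MMP2sh1 at day 0 (−1.28, adjusted p = 0.019, not called without replicate 3 of the control or replicate 1 or 2 of MMP2sh1, −1.32 to −0.86), and at day +2 in MMP2sh2 DDR2 (0.26, adjusted p = 0.010, not called without replicate 3 of the control, 0.19, or replicate 1 of MMP2sh2, 0.24) and LAIR1 (−1.93, adjusted p = 0.030, not called without replicate 1 or 3 of the control or any of MMP2sh2, −2.26 to −1.40). ITGA10 and LAIR1 were low, at 1.01 to 2.28 CPM and 0.568 to 1.39 CPM in the control libraries of these comparisons.

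Of the 5 collagenases and gelatinases tested, 1 was lower and 1 higher in MMP2sh1 at day −2, 1 and 2 at day 0 and 1 and 3 at day +2, and in MMP2sh2 0 and 0, 3 and 0, and 1 and 2. MMP9, the other gelatinase, was higher in MMP2sh1 at day −2 (1.30, SE 0.10, adjusted p = 8.0e-10), from 18.1 ± 2.04 CPM (SD, n = 3) in the control to 44.6 ± 5.48 CPM, and at day +2 (1.75, SE 0.07, adjusted p = 1.3e-16), from 20.04 ± 1.27 to 67.4 ± 3.23 CPM. At day 0 MMP9 was at 7.21 ± 0.47 CPM in MMP2sh1 against 4.94 ± 0.76 CPM. In MMP2sh2 MMP9 was higher at day +2 (0.44, SE 0.10, adjusted p = 0.0048, not called without replicate 1 of the control, 0.39, or of MMP2sh2, 0.30). MMP13 was lower in MMP2sh2 at day 0 (−0.98, SE 0.24, adjusted p = 0.0040) and day +2 (−1.27, SE 0.18, adjusted p = 3.3e-06), and in MMP2sh1 at day +2 (−0.66, SE 0.18, adjusted p = 0.011, not called without replicate 3 of the control, −0.54, or replicate 2 of MMP2sh1, −0.53). MMP14, a membrane-bound collagenase, was lower in MMP2sh1 at day −2 (−0.40, SE 0.07, adjusted p = 4.7e-04) and day 0 (−0.35, SE 0.06, adjusted p = 3.1e-05). MMP14 in MMP2sh1 was above every control library of day +2, at 276.8 to 310.9 against 240.8 to 260.5 CPM. FAP, a serine protease, was higher in MMP2sh1 at day 0 (0.56, SE 0.10, adjusted p = 1.8e-04). FAP in MMP2sh1 was also above every control library of day +2, at 24.17 CPM or more against 13.66 CPM or less.

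Of the 15 regulators tested, 2 were lower and 1 higher in MMP2sh1 at day −2, 7 and 2 at day 0 and 4 and 3 at day +2, and in MMP2sh2 2 and 2, 4 and 1, and 2 and 1. CTGF (CCN2), a matricellular protein induced by TGF-β, was higher in MMP2sh1 at each day (0.36, 0.64 and 0.69, with SEs of 0.06, 0.05 and 0.06 and adjusted p of 8.1e-05, 2.8e-12 and 2.1e-10) and in MMP2sh2 at day +2 (0.27, SE 0.06, adjusted p = 9.2e-04). ZEB1, a transcriptional repressor, was lower at day −2 in MMP2sh1 (−0.49, SE 0.08, adjusted p = 1.2e-04) and in MMP2sh2 (−0.26, SE 0.08, adjusted p = 0.029, not called without replicate 1 or 3 of either line, −0.28 to −0.20). SMAD3, which carries the TGF-β signal, was lower in MMP2sh1 at day +2 (−0.46, SE 0.07, adjusted p = 7.7e-06) and higher in MMP2sh2 at day −2 (0.26, SE 0.05, adjusted p = 0.0018) and day 0 (0.40, SE 0.05, adjusted p = 3.4e-08). The lines did not go opposite ways by day. At day +2 SMAD3 was also below the control in MMP2sh2, at 73.2 to 80.6 against 84.5 to 95.8 CPM. In MMP2sh1 its mean was above control at day −2 (175.8 against 165.7 CPM) and day 0 (140.7 against 130.1 CPM). SOX5 was lower in MMP2sh1 at day 0 (−0.94, SE 0.13, adjusted p = 3.1e-06), SOX6 in MMP2sh2 at day 0 (−0.72, SE 0.12, adjusted p = 2.9e-05) and TGFB2 in MMP2sh2 at day +2 (−0.34, SE 0.07, adjusted p = 2.7e-04). Over the 6 lists and 6 comparisons the medians lay between −0.45 and 0.34, against −0.00 to 0.00 over all genes, and the lists are described by counts alone.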

How the data were processed

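RNA-Seq counts of 27 U2OS libraries were used. The authors selected poly(A) RNA, used Trim Galore 0.6.0 for trimming, STAR 2.7.3a for alignment to hg19 and HTSeq 2.0.0 for counting, per the labels, and deposited whole-number counts per gene symbol with no normalization. Strand was not used and reads on several genes were discarded, so genes that overlap or are antisense to a member are uncertain. The annotation used for counting is not given in the sources used here. Lines that name no gene (16.8% to 19.1% of the counted total) were left out.

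Each comparison was fitted with edgeR 4.0.16 (R 4.3.3) on its own 6 libraries, or 12 for the change between days, by the quasi-likelihood test, after TMM and filterByExpr (minimum count 10, minimum total 15), and p was adjusted over all genes tested by Benjamini-Hochberg. Every adjusted p given is from this test unless another tool is named. The standard error is the size of the log2 fold change divided by the square root of F. The 16 comparisons were the hairpin lines with control and with each other at each day, the days within lines, and the interaction of line and day. Levels per length are CPM per kilobase of the union of exons in GENCODE v44lift37 (GRCh37). Ranges of counts and the Poisson interval cover counting error only. The fits were tested on simulated data with known changes.

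The members and lists were chosen with earlier results of these data known. The genes named were the 10 members, MMP2, protein coding genes within 500 kb of COL3A1 and COL5A2, genes of closest pattern and, in each list, the called genes of largest fall or rise in the comparisons with control and in the control at day +2 against day −2. Alternatives were DESeq2 1.42.0, all 27 libraries in 1 fit, median-of-ratios scaling, no filter, a block of the replicate number, a minimum of 10 counts in each library, and each library left out in turn. The same alternatives were run on the lists and neighbours, a choice made after seeing the data.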

Additional observations from a re-analysis of the deposited data

Results flagged for a closer look

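The change from day −2 to day +2 differed between a hairpin line and the control in 4 results, each by the test of the interaction of line and day in edgeR. The differences, as log2 fold change of the hairpin line minus that of the control, were 0.62 for COL3A1 in MMP2sh1, 0.54 for COL5A2 in MMP2sh1, 0.41 for COL11A1 in MMP2sh1 and −0.41 for COL3A1 in MMP2sh2. The values for COL3A1 and COL5A2 in MMP2sh1 passed the test in all alternatives run, which were 18 for each. No test of the same kind was run with day 0.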

How the results depend on the processing

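Of 67 called values of the members, none changed sign in the alternatives run, and 23 lost the call in at least 1 of them, 15 in an alternative other than leaving out a library and 22 with 1 library left out. Of 78 values not called, 9 were called in an alternative other than leaving out a library and 13 with 1 library left out. The replicate numbers did not pair the libraries (correlation of deviations −0.03 to 0.04 over 42 pairs), and with the replicate block 1 call was lost and 3 were gained, which raised the members called in MMP2sh1 at day −2 from 2 to 4. No filter gave 4 there and 5 in the interaction for MMP2sh1 (3 as reported). The fit of all 27 libraries gave 2 members in place of 4 in MMP2sh2 at day 0, 1 in place of 3 in MMP2sh2 at day +2, 1 in place of 4 between the hairpin lines at day 0, where DESeq2 gave 2, and 0 in place of 1 in the interaction for MMP2sh2, where 2 members had an unadjusted p under 0.05 in edgeR and DESeq2 called 1. The cause of these differences was not tested. With 1 library left out, the members called against control at days −2, 0 and +2 were 2 to 3, 2 to 3 and 2 to 5 in MMP2sh1 and 1 to 3, 2 to 4 and 1 to 2 in MMP2sh2. They were 4 to 6, 2 to 4 and 1 to 3 between the hairpin lines, 4 to 5, 5 to 6 and 6 to 8 in the control (day 0 against day −2, day +2 against day 0 and day +2 against day −2), 6 to 8 and 7 to 8 over the expansion in MMP2sh1 and MMP2sh2, and 2 to 4 and 0 to 1 in their interactions. Of 2448 counts of the lists under an alternative, 2184 were within 1.5 times the reported count. Over 1891 values of named list genes and neighbours under an alternative, 98 lost the call and 0 changed sign. COL1A2 and COL2A1, with at most 28 and 46 counts per library, and COL5A3 at day +2 rest on few counts, which limits the precision of their changes.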
